A study of Homo sapiens with 6 samples.

Results

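The genes described here encode 8 RNA-binding proteins that are known to promote or to block the formation of circular RNAs: QKI, ADAR, ADARB1, DHX9, ILF2, HNRNPL, MBNL1 and NOVA2. They were chosen by symbol, and each of the 8 had an entry among the 59151 genes measured in human forebrain neuron progenitor cells. The cells were derived from H9, an established line of human embryonic stem cells, and were taken at day 26 with no change of genotype (wild type). Control cells had received a scrambled hairpin RNA. The other cells had received shRNA1 or shRNA2, which are different hairpins that target circRTN4(2,3), one of the circles of the gene RTN4. Each of the 3 groups held 2 libraries of total RNA from which ribosomal RNA had been depleted. The samples are named forebrain neurons in one label and progenitors in another, and the cells were a bulk culture, so that fewer cells of a type and less RNA per cell cannot be told apart.

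A circular RNA forms when the spliceosome joins the end of an exon to the start of the same or an earlier exon, a reaction called back-splicing. The joining is favoured where the flanking introns are brought close together, either by proteins that bind both introns or by inverted repeats, often Alu elements, that pair with each other. QKI, HNRNPL and MBNL1 are splicing factors reported to promote circles by binding flanking introns, and NOVA2 does so in neurons. ILF2 is a subunit of a complex that binds double-stranded RNA and stabilises paired introns, whereas the helicase DHX9 unwinds the pairs and the adenosine deaminases ADAR and ADARB1 change their bases to inosine. Neural tissue is known for its many circular RNAs, which gain in abundance as neurons mature. A hairpin against a circular RNA acts on the circle after it has been made, so these genes are the machinery upstream of the targeted molecule.

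The libraries differed in depth. The totals behind the values were 46634855 reads in scramble replicate 1 and 77187298 in scramble replicate 2, against 78488667 to 83629504 in the hairpin libraries. Expression is given as FPKM, fragments per kilobase of gene and of library total, and comparisons were made by limma on log2(FPKM + 1). RTN4, the host gene of the targeted circle, stood at 40.3 and 38.5 FPKM in scramble, 34.2 and 34.7 with shRNA1, and 31.2 and 31.3 with shRNA2 (log2 fold change of both hairpins against scramble -0.26, limma adjusted p = 0.135). RTN4 passed the limma test after the GC correction used further on (-0.20, adjusted p = 0.005) and without scramble replicate 1 (-0.22, adjusted p = 0.048). These values count linear and circular reads together, so they do not check the depletion of the circle. Neural progenitor markers (SOX2, PAX6, NES and 6 others) were all tested and summed to 216 to 241 FPKM, and 9 neuron markers to 335 to 391 FPKM. The pluripotency factors POU5F1 and NANOG, the astrocyte genes GFAP, AQP4 and ALDH1L1, and the microglial genes CX3CR1 and AIF1 were below 0.1 FPKM in every library. Other genes of the same lists were not: LIN28A, DPPA4 and SALL4 (pluripotent) lay at 2.08 to 5.95 FPKM, SLC1A3 (astrocyte) at 4.26 to 6.87, S100B at 0.0802 to 0.263, and P2RY12 and CSF1R (microglia) at 0.507 to 0.826 and 0.189 to 0.246.

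Levels of the 8 genes spanned a wide range in control and hairpin cells alike. From the highest to the lowest mean over the 6 libraries the order was ILF2 at 40.0 FPKM, DHX9 at 30.5, ADAR at 20.0, QKI at 17.9, NOVA2 at 15.1, HNRNPL at 13.4, MBNL1 at 3.21 and ADARB1 at 0.813 FPKM. Only ADAR and QKI, and NOVA2 and HNRNPL, overlapped with their neighbour in this order. ADAR stood above QKI in 5 of 6 libraries, and NOVA2 above HNRNPL in 6 of 6. Among the protein-coding genes tested, 98.6% lay below ILF2, 97.8% below DHX9 and 92.1% below HNRNPL, the lowest of the upper 6. MBNL1 stood near the middle, above 48.1% of those genes. ADARB1 was under the minimum mean of 1 FPKM that those genes had to reach, so it has no rank among them. The 6 libraries of any of the 8 genes varied with a coefficient of variation of 4.94% (DHX9) to 9.67% (ADARB1). The distance from ILF2 to ADARB1 was far larger than such differences between libraries, whereas the distances within the overlapping pairs were not.

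**Figure D1:**
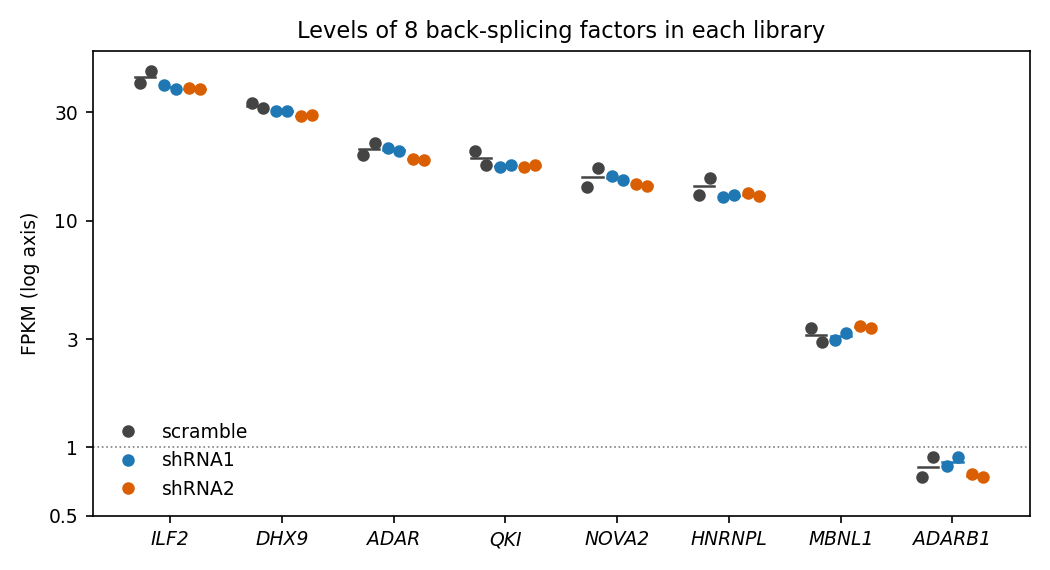
FPKM (log axis) of the 8 genes in each library, ordered by mean; each point is 1 library and each short line the mean of the 2 libraries of a group, and the dotted line marks the minimum mean of 1 FPKM for testing. ILF2 lies at 37.8 to 45.6 FPKM and ADARB1 at 0.737 to 0.907 FPKM, under the dotted line.

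The genes at the upper and lower ends of this order, ILF2 and ADARB1, also differ in the sequence just before the transcription starts listed for them. RefSeq promoter windows (GRCh38.p14) were found for 7 of the 8 genes, with QKI having no entry. The 250 bases before the start of ILF2 (chr1:153670994-153671243, minus strand) and before 1 of the starts of ADARB1 (chr21:45074328-45074577, plus strand) are shown. They hold, respectively, the most CCAAT and the most GGGCGG matches of the members' windows, the latter shared with another ADARB1 start. The ADARB1 window lies inside the span of the gene in GENCODE v29. The ILF2 window runs into that of ILF2, which reaches 153671048, so the last marked matches of the printed sequence lie within the gene. Capitals mark CCAAT (or ATTGG, its complement) in ILF2 and GGGCGG (or CCGCCC) in ADARB1.

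ILF2: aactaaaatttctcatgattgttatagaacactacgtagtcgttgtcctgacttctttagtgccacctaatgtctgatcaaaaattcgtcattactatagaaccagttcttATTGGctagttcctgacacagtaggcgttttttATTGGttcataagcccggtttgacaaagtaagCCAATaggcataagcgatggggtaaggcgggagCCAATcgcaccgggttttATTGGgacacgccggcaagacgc

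ADARB1: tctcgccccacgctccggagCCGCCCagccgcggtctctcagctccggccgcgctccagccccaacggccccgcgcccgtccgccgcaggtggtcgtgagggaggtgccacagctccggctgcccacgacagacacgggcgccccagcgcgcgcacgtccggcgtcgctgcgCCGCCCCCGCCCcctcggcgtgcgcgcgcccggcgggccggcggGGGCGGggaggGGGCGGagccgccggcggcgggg

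The ILF2 window held 5 CCAAT matches over both strands and no GGGCGG. Of 35116 windows of this length, 32.0% held at least 1 CCAAT and 0.319% held at least 5. Its GC content was 43.6%, and 19.4% of all windows had less. The ADARB1 window was the reverse, with 5 GGGCGG matches, no CCAAT and a GC content of 83.6%, a value that 99.1% of windows stayed below. Windows of other ADARB1 starts held 5 GGGCGG matches (83.6% GC), 2 (81.6% GC) and 0 (56.8% GC), all without CCAAT, so the contrast in GGGCGG depends on the start. At least 1 GGGCGG was in 42.6% of all windows and at least 5 in 4.15%. CCAAT is the core letters read by the factor NF-Y, and GGGCGG the core of the GC box read by SP1; the matches describe the letters only, and neighbouring matches of each motif did not overlap. Between these ends, the windows of DHX9 and MBNL1 with the highest counts held 4 GGGCGG matches each, NOVA2 and HNRNPL 2, and the ADAR windows at most 1.

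Among the proteins that act on paired introns, ILF2, DHX9 and ADAR held the top 3 places of the order, and ADARB1 held the last. ILF2 (chr1:153661788-153671048, minus strand, GENCODE v29 on GRCh38, as for all positions that follow) stood at 40.6 and 45.6 FPKM in scramble, 39.5 and 37.9 with shRNA1, and 38.5 and 37.8 with shRNA2. Both scramble libraries lay above the 4 hairpin libraries, though scramble replicate 1 by little. Its exons overlap those of SNAPIN, a gene on the opposite strand with 4.89 to 6.41 FPKM, and without a stated strand setting the reads of the overlap cannot be assigned with certainty. Exons of MBNL1 (MBNL1-AS1 and AC026347.1, opposite strand), HNRNPL (AC008982.1, same strand) and ADARB1 (SSR4P1, opposite strand) also overlap other genes.

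DHX9 (chr1:182839369-182887751, plus strand), the helicase that unwinds paired Alu elements, was measured at 32.9 and 31.2 FPKM in scramble, 30.4 and 30.5 with shRNA1, and 28.8 and 29.1 with shRNA2. The groups did not overlap and stood in the order scramble, shRNA1, shRNA2. ADAR (chr1:154582057-154628013, minus strand), the most widely expressed of the RNA-editing deaminases, had 19.5 and 21.9 FPKM in scramble, 20.8 and 20.3 with shRNA1, and 18.7 and 18.6 with shRNA2. The shRNA1 libraries fell between the scramble libraries, and the shRNA2 libraries lay below all others. ADARB1 (chr21:45073853-45226560, plus strand), the deaminase that edits glutamate receptor transcripts in neurons, had 0.739 and 0.907 FPKM in scramble, 0.826 and 0.903 with shRNA1, and 0.763 and 0.737 with shRNA2. The scramble libraries spanned nearly the whole range. ADAR was 22.5 to 26.4 times as high as ADARB1 in the 6 libraries. The ADARB1 value rested on 648 to 1332 reads per library, with a counting error of at most 3.93%, over a length of 18789 bases recovered from the values. That length is longer than the 10049 bases of exons in GENCODE v29, so the level of ADARB1 depends on which exons the authors' annotation held.

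Of the splicing factors that bind flanking introns, QKI was the highest. QKI (chr6:163414000-163578596, plus strand), known for raising circular RNAs during the transition from epithelial to mesenchymal cells and for its role in glia, had 20.3 and 17.6 FPKM in scramble, 17.2 and 17.6 with shRNA1, and 17.2 and 17.6 with shRNA2. Only scramble replicate 1 stood apart, and the other 5 libraries lay together. HNRNPL (chr19:38836388-38852347, minus strand), which binds CA-rich RNA, had 12.9 and 15.5 FPKM in scramble, 12.7 and 13.0 with shRNA1, and 13.2 and 12.8 with shRNA2. Here scramble replicate 2 was the library that stood apart.

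MBNL1 (chr3:152243828-152465780, plus strand), whose own second exon forms a circle that the protein binds, had 3.36 and 2.90 FPKM in scramble, 2.98 and 3.21 with shRNA1, and 3.43 and 3.36 with shRNA2. The shRNA2 libraries were above the other 4, by a small margin over scramble replicate 1. NOVA2 (chr19:45933734-45973546, minus strand), a neuron-specific factor that binds YCAY clusters, had 14.0 and 17.0 FPKM in scramble, 15.7 and 15.1 with shRNA1, and 14.5 and 14.2 with shRNA2. The scramble libraries were the lowest and the highest of the 6. Reads on circles and on linear RNA of these genes are counted together, which bears on MBNL1 in particular. The recovered read numbers of the 7 genes other than ADARB1 ran from 1861 (MBNL1, scramble replicate 1) to 26206 (QKI, shRNA2 replicate 1), so that counting error was small beside the differences between scramble libraries.

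None of the 8 genes passed the test when the 4 libraries with hairpins against circRTN4(2,3) were compared with scramble. In limma, 0 of the 7 members that reached the minimum mean of 1 FPKM had a Benjamini-Hochberg adjusted p under 0.05, where 0.0826% of the 18162 genes tested did. At an unadjusted p under 0.05 the count was 1 of 7 members, ILF2, against 13.8% of all genes. The lowest value was that of ILF2, with a log2 fold change of -0.16 (SE 0.06, 95% interval -0.32 to -0.00, limma adjusted p = 0.361). DHX9 was at -0.11 (limma adjusted p = 0.377), HNRNPL at -0.12 (0.561), QKI at -0.11 (0.528), ADAR at -0.07 (0.636), NOVA2 at -0.05 (0.829) and MBNL1 at 0.04 (0.834). The intervals of the 7 genes all lay between -0.32 and 0.21, which is the range of change that these libraries leave at that level. Without the minimum, ADARB1 had a log2 fold change of -0.01 (limma adjusted p = 0.962).

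The 6 negative values and 1 positive value of the members had a median of -0.11, and all genes tested a median of -0.03. For protein-coding genes alone that median was -0.05. With a minimum mean of 5 FPKM it was -0.08, beside -0.11 for the 6 members left. At that minimum, shRNA2 against scramble gave -0.13 for all genes and -0.13 for the members. The sign depended on the scaling: with every library scaled to the same sum of FPKM, the median of all genes moved from -0.03 to 0.08 and that of the members to 0.02, with only ILF2 still below 0. Hairpin and scramble libraries did not overlap for 2 members, DHX9 and ILF2, both lower; 12.6% of all genes tested showed such a separation downward and 18.5% in either direction.

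The hairpins taken one at a time gave the same count, and both comparisons share the scramble libraries. With shRNA1, 0 of 7 members passed in limma, against 0.033% of all genes tested, and 0 of 7 had an unadjusted p under 0.05, against 8.97%. ILF2 was again the lowest at -0.15 (95% interval -0.33 to 0.03, limma adjusted p = 0.653), and NOVA2 (-0.01), ADAR (-0.01) and MBNL1 (-0.01) were closest to 0. DHX9 and ILF2 did not overlap with scramble, where 18.9% of genes separated downward. With shRNA2, 0 of 7 passed in limma, against 0.628%, and 1 of 7, DHX9, had an unadjusted p under 0.05, against 19.2%. DHX9 was at -0.14 (95% interval -0.27 to -0.01, limma adjusted p = 0.225), ILF2 at -0.17 (0.288), ADAR at -0.14 (0.325) and MBNL1 at 0.09 (0.537). QKI, ADAR, DHX9 and ILF2 lay below scramble without overlap, where 34.4% of all genes tested did, and MBNL1 above it, where 13.3% did.

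The hairpins were also set against each other. In limma 0 of 7 members passed, as did 0% of the 18162 genes tested, and 0 of 7 members had an unadjusted p under 0.05, against 16.1% of genes. That fit shared 1 spread per gene over all 3 groups, and the scramble libraries varied most. With only the hairpin groups in the fit, 0 of 7 members and 5.27% of the genes passed, so the 0% does not show that the hairpins were alike. In the shared fit ADAR was at -0.13 with shRNA2 relative to shRNA1 (95% interval -0.30 to 0.04, limma adjusted p = 0.393) and MBNL1 was at 0.10 (95% interval -0.09 to 0.29, 0.539). QKI differed between the hairpins by 0.00 (95% interval -0.19 to 0.20). ADAR, DHX9 and NOVA2 lay lower with shRNA2 without overlap, where 46.6% of genes did, and MBNL1 higher, where 16.6% did.

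The scramble libraries differed from each other by more than the hairpin libraries did, and in a pattern that followed base composition. The median SD between replicates over 10065 protein-coding genes was 0.10 in scramble on the log2(FPKM + 1) scale, 0.02 with shRNA1 and 0.03 with shRNA2. Across these genes, the difference scramble replicate 2 minus replicate 1 correlated with the GC content of the gene's longest coding transcript at r = 0.861. This is a correlation across genes of 2 libraries, and genes are not independent replicates. Its median was -0.14 for the 2701 genes under 42% GC and 0.28 for the 2720 genes above 55% GC. For the shRNA1 libraries r was -0.195 and for the shRNA2 libraries -0.569, with medians between -0.08 and 0.03.

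The 8 genes followed the same order. QKI (38.7% GC), MBNL1 (39.9%) and DHX9 (43.9%) were lower in scramble replicate 2 than in replicate 1, by log2 differences of -0.20, -0.16 and -0.07. ILF2 (45.3% GC), ADAR (49.5%), ADARB1 (53.1%), HNRNPL (55.3%) and NOVA2 (57.0%) were higher, by 0.16, 0.16, 0.13, 0.24 and 0.26. All 3 members under 45% GC thus lay on one side, and all 5 others on the opposite side. For DHX9 the split of the scramble libraries was smaller than the distance to the shRNA2 libraries, and for NOVA2 it was the larger.

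**Figure D2:**
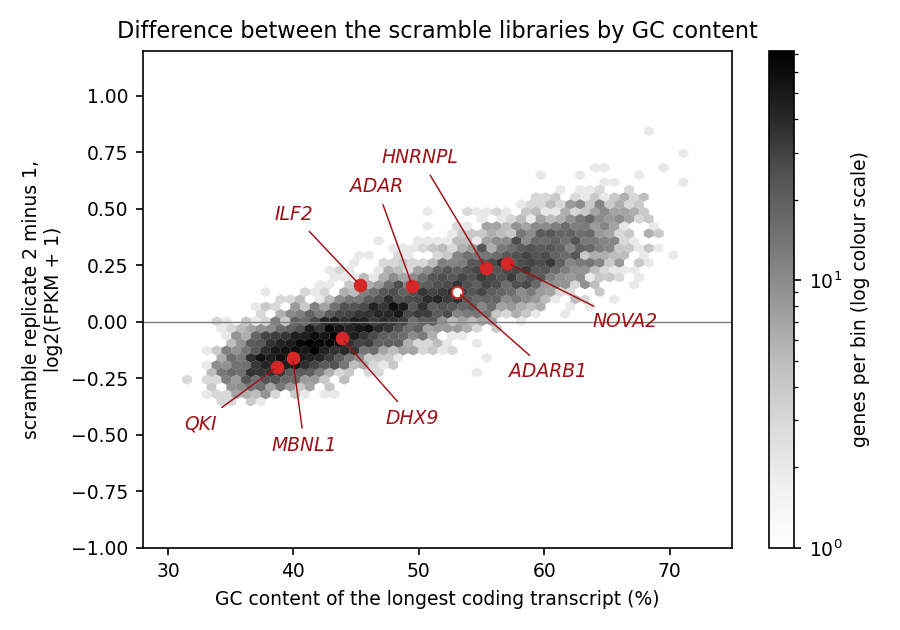
Difference between the scramble libraries (replicate 2 minus 1, log2(FPKM + 1)) against the GC content of the longest coding transcript for 10065 protein-coding genes (grey bins) and the 8 genes (red points; ADARB1, below the minimum of 1 FPKM, is open). The cloud rises from left to right (r = 0.861), and the members run from QKI at -0.20 to NOVA2 at 0.26.

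Averaged over both libraries, the scramble group did not carry the slope. The correlation with GC content was 0.00164 for hairpin minus scramble, 0.588 against scramble replicate 1 alone and -0.578 against scramble replicate 2 alone. The calls of members changed when a scramble library was left out. Without scramble replicate 1, limma called 4 of 7 members lower with shRNA2, where 11.5% of all genes tested were called lower. These were ADAR at -0.22 (limma adjusted p = 0.036), ILF2 at -0.25 (0.040), HNRNPL at -0.23 (0.040) and NOVA2 at -0.23 (0.040), the 4 tested members with the highest GC content. Without scramble replicate 2, 0 of 7 were called, where 2.94% of genes were, and HNRNPL and NOVA2 stood at 0.01 and 0.03.

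As an alternative chosen after the data had been seen, a smooth curve of each library's deviations against GC content was subtracted before the fit. The curve holds the level of a library as well as its slope, so the libraries were also rescaled. The median of all genes with shRNA2 against scramble was -0.09 for protein-coding genes as deposited and 0.002 after the correction. The parts of slope and level in later calls were not tested. The median SD in scramble fell to 0.04, and the difference between the scramble libraries became -0.05 for QKI, -0.03 for MBNL1, -0.02 for DHX9, 0.09 for ADAR, 0.04 for HNRNPL and 0.03 for NOVA2. ILF2 was the exception at 0.18, so its split between the scramble libraries did not shrink.

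**Figure D3:**
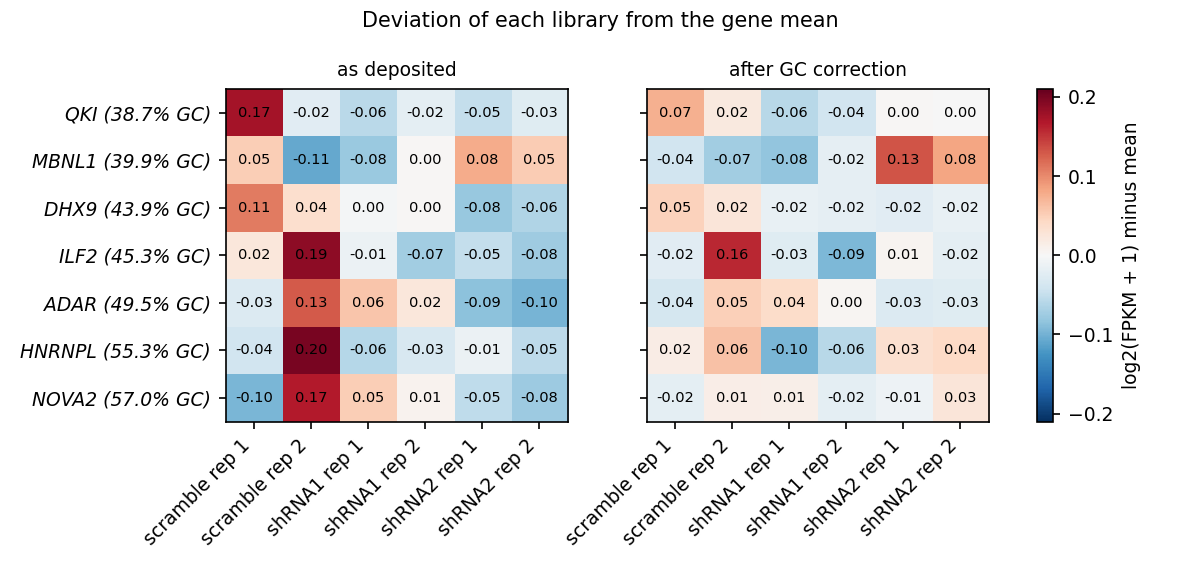
Deviation of each library from the gene's mean (log2(FPKM + 1), colour and number) for the 7 tested members, ordered by GC content, as deposited (left) and after GC correction (right). The contrast between the scramble columns fades for 6 members and stays for ILF2, and the shRNA2 columns of MBNL1 are the highest of its row.

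After the GC correction, which also moved the levels of the libraries, the intervals narrowed and 2 members passed the test in comparisons that involved shRNA2. MBNL1 rose with shRNA2 by 0.16 against scramble (95% interval 0.07 to 0.26, limma adjusted p = 0.030) and by 0.16 against shRNA1 (95% interval 0.07 to 0.25, limma adjusted p = 0.031). HNRNPL was higher with shRNA2 than with shRNA1 by 0.11 (95% interval 0.04 to 0.19, limma adjusted p = 0.046), and stood at -0.12 (0.072) with shRNA1 and at -0.00 (0.990) with shRNA2 against scramble. In this fit 7.38% of the 10065 genes were called higher with shRNA2 than in scramble and 9% higher than with shRNA1, beside 1 of 7 and 2 of 7 members (14.3% and 28.6%). With both hairpins together, 0 of 7 members passed, where 10.7% of genes did, and with shRNA1 0 of 7, where 8.33% did. ADAR, DHX9 and NOVA2 stayed within 0.06 of 0 in each comparison with scramble.

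**Figure D4:**
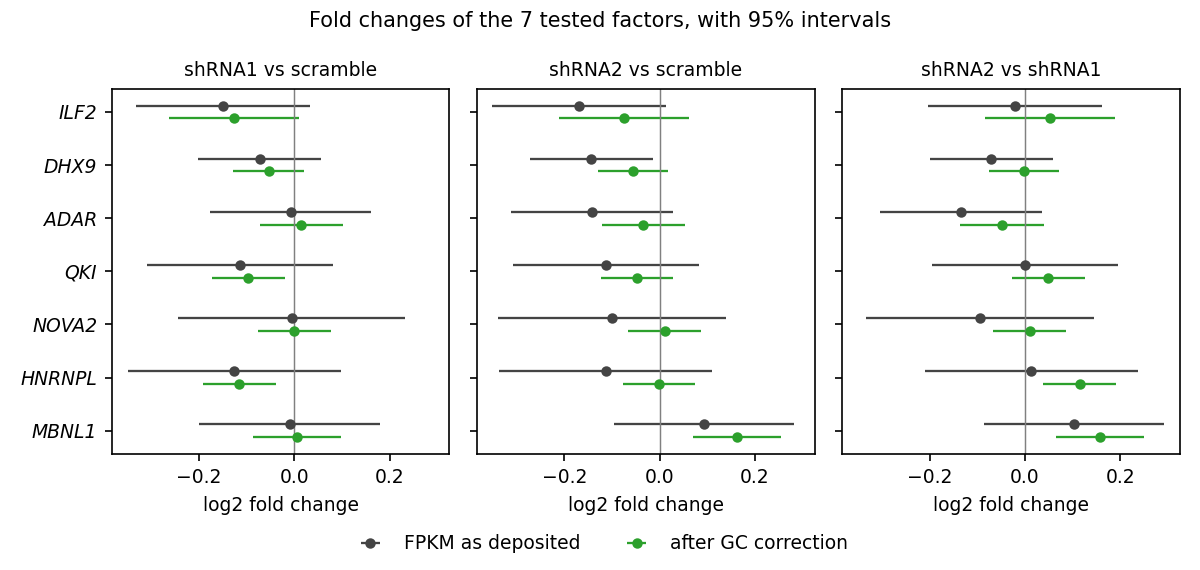
Log2 fold changes (points) with 95% intervals (bars) of the 7 tested members in 3 comparisons, from FPKM as deposited (grey) and after GC correction (green). Only the green intervals of QKI and HNRNPL (left), MBNL1 (middle), and HNRNPL and MBNL1 (right) and the grey one of DHX9 (middle) leave out 0, and of these the green ones of MBNL1 and HNRNPL in the comparisons with shRNA2 passed the adjusted test.

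Each member except QKI and DHX9 has listed relatives, and apart from ADARB1 the member was the highest of its family in these cells. STRBP and ZFR, which share the dimerisation domain of ILF2, had means of 3.99 and 16.5 FPKM. HNRNPLL, the paralogue of HNRNPL, had a mean of 6.14 FPKM, and HNRNPL was 1.99 to 2.51 times as high.

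NOVA1, the other Nova protein, had 6.42 and 5.77 FPKM in scramble, 6.77 and 6.88 with shRNA1, and 6.52 and 6.15 with shRNA2. NOVA2 was 2.19 to 2.95 times as high as NOVA1, with the lowest and highest ratio both in scramble libraries. MBNL2 (mean 2.20 FPKM) and MBNL3 (1.73 FPKM) came close to MBNL1, which was 1.26 to 1.67 times MBNL2 and 1.64 to 2.11 times MBNL3. The MBNL1 to MBNL2 ratio was 1.67 and 1.66 with shRNA2 and between 1.26 and 1.51 in the other libraries, without overlap. Taken alone, MBNL1 lay higher with shRNA2 than with shRNA1 without overlap, as 16.6% of the genes tested did, and MBNL2 lower, as 46.6% did. The share of ratios that separate in this way was not computed.

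ADARB2, a relative of ADARB1 that lacks editing activity, had 0.726 and 0.796 FPKM in scramble, 0.985 and 1.03 with shRNA1, and 0.646 and 0.624 with shRNA2. Its hairpin libraries lay on opposite sides of scramble. Among the 18162 genes tested, 34.4% were lower with shRNA2 than in scramble without overlap, and 2869 were higher with shRNA1. The share of genes that did both was not computed. ADARB1 exceeded ADARB2 in both scramble libraries and with shRNA2, by 1.02 to 1.18 times, and was 0.838 and 0.881 times ADARB2 with shRNA1. Both genes were under the minimum for testing.

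Among the 8 relatives and partners, 7 were tested and 0 passed in any of the 4 comparisons in limma, with 0 at an unadjusted p under 0.05 for both hairpins together. Their median against scramble with both hairpins was -0.08. After the GC correction NOVA1 rose with both hairpins together by 0.14 (limma adjusted p = 0.036), from 0.10 (limma adjusted p = 0.534) on the deposited values. MBNL3 was higher with shRNA2 than with shRNA1 by 0.16 (limma adjusted p = 0.039). Each was 1 of 7 in its comparison, where 445 of the 10065 genes and 9% of them were called higher, respectively.

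**Figure D5:**
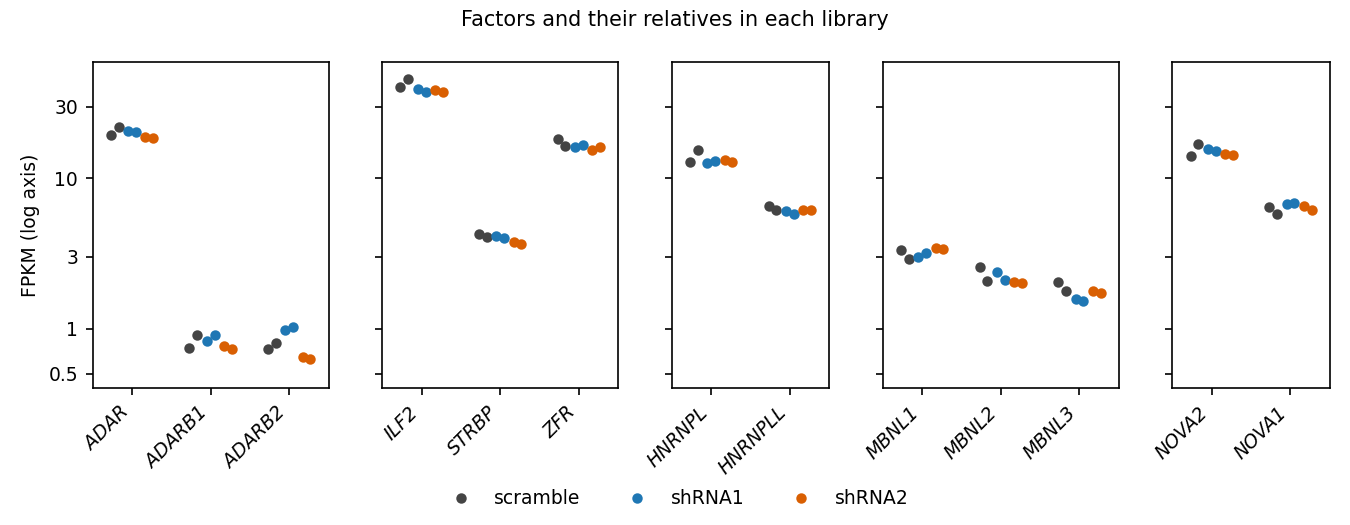
FPKM (log axis) in each library of the members that have listed relatives, beside those relatives; each point is 1 library. The member is the highest of its family in every library except that ADARB1 and ADARB2 both lie near 0.6 to 1.0 FPKM, far below ADAR, and ADARB2 is highest with shRNA1.

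Other genes of the pathway were read from lists of other back-splicing regulators, the core spliceosome, turnover of circular RNAs and lariats, and sensing of double-stranded RNA. In limma none of their tested members passed in any of the 4 comparisons. For both hairpins against scramble, 8 of the tested other regulators, 3 of the spliceosome genes, 0 of the turnover genes and 3 of the sensing genes had an unadjusted p under 0.05, where 13.8% of all genes did. Of 32 other back-splicing regulators 28 were tested, with a median of -0.09 for both hairpins against scramble and 25 negative values, where 63.1% of all genes were negative and their median was -0.03; with libraries scaled to the same sum the median was 0.04. For protein-coding genes alone the median of all genes was -0.05. The libraries of 11 of the 28 were lower without overlap, against 12.6% of all genes. The highest of them were HNRNPK (mean 59.7 FPKM), HNRNPA1 (53.2 FPKM) and SFPQ (45.2 FPKM), all abundant splicing proteins. RBM20, the splicing factor behind circles of the titin gene in heart, was below 0.1 FPKM in every library, and the epithelial factors ESRP1 and ESRP2 were under the minimum of 1 FPKM.

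All 16 core spliceosome genes were tested, and all 16 values were negative for both hairpins against scramble, with a median of -0.13, whereas with libraries scaled to the same sum 10 were negative with a median of -0.02. SF3B1 (mean 24.7 FPKM), SF1 (19.8 FPKM) and SNRPB (18.7 FPKM) were the highest. In this list too the scramble libraries split, SNRPB having 17.6 FPKM in replicate 1 and 24.0 in replicate 2, with 17.2 to 18.3 in the hairpin libraries. After the GC correction the median was -0.07 with 14 of 16 negative, and SF3A1 (-0.19, limma adjusted p = 0.005) and PRPF8 (-0.10, 0.043) were lower, 2 of 16 where 6.28% of all genes were called lower. With shRNA1 alone 4 of 16 were lower in that fit, SF3A1, SNRPB and SF1 among them, where 4.43% of all genes were. In the same fit 2 of 28 other back-splicing regulators were lower with both hairpins, PTBP1 (-0.24, limma adjusted p = 0.004) and NONO (-0.22, 0.008). PTBP1, the splicing repressor that gives way to PTBP2 in neurons, had 6.64 and 8.61 FPKM in scramble and 5.56 to 6.33 FPKM with the hairpins. The genes given for the corrected fit, here and in the next lists, were picked out after their values were seen.

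Of 13 turnover genes 12 were tested, with a median of -0.05 and 9 negative, and with 0 negative and a median of 0.06 under scaling to the same sum. After the GC correction 0 of 12 passed with both hairpins, where 10.7% of all genes did. TNRC6A was higher with shRNA2 than in scramble by 0.13 (limma adjusted p = 0.032), 1 of 12 where 7.38% of genes were. G3BP1 was higher with shRNA2 than with shRNA1 by 0.19 (limma adjusted p = 0.007), 1 of 12 where 9% of genes were. G3BP2 (mean 20.4 FPKM), YTHDF2 (16.4 FPKM) and XRN2 (14.6 FPKM) were among the highest of the list. Of 10 genes of double-stranded RNA binding and sensing 9 were tested, with a median of -0.12 and 8 negative, and with 5 negative under scaling to the same sum. After the GC correction MAVS was lower with both hairpins by -0.15 (limma adjusted p = 0.016), 1 of 9 where 6.28% of genes were. STAU1 was lower with shRNA2 than in scramble by -0.17 (limma adjusted p = 0.017). With MAVS it made 2 of 9 there, where 958 of the 10065 genes were lower. The highest were STAU1 (mean 14.1 FPKM), DROSHA (7.53 FPKM) and PRKRA (5.99 FPKM), and the sensor IFIH1 was below 0.1 FPKM in every library. Interferon-stimulated genes, whose class includes the long form of ADAR, were nearly silent. Of 13 such genes 11 were under the minimum and MX1, OAS1, OAS2 and OAS3 under 0.1 FPKM in every library. The 2 others were tested and 0 passed on the deposited values, with 0 at an unadjusted p under 0.05 for both hairpins. IFI6 had a mean of 2.13 FPKM. After the GC correction it was lower with shRNA1 than in scramble by -0.40 (limma adjusted p = 0.014), where 4.43% of genes were. It was higher with shRNA2 than with shRNA1 by 0.55 (limma adjusted p = 0.002), where 9% of genes were.

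Markers of cell types, progenitors included, moved with the groups beside these values. On the deposited values 0 of 9 progenitor markers passed in limma. After the GC correction EMX2, HES1, PAX6 and VIM were lower with both hairpins, 4 of 9 where 6.28% of genes were. With shRNA2 against scramble HES1, PAX6 and VIM were lower and FABP7, NES and SOX1 higher, where 16.9% of genes were called in either direction. The sum of the list given above does not show these opposite moves. Choroid plexus and dorsal midline markers (TTR, RSPO2, RSPO3, WNT8B, BMP7 and LMX1A) summed to 21.1 and 23.2 FPKM in scramble and to 6.11 to 6.60 FPKM with the hairpins. Mesenchyme and matrix genes summed to 5.36 and 5.99 FPKM in scramble, 1.14 and 1.05 with shRNA1, and 0.453 and 0.344 with shRNA2. Pluripotency-linked genes summed to 7.60 to 8.86 FPKM in scramble and shRNA1 libraries and to 16.0 and 15.9 FPKM with shRNA2. The share of FPKM on small structured RNAs was 22.2% and 32.3% in scramble and 26.6% to 28.8% with the hairpins. The part of these differences in the values of the 8 genes was not tested.

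The genes whose pattern over the 6 libraries was most like that of each member were named by Pearson's r of log2(FPKM + 1), among about the 3214 genes of at least 5 FPKM with ordinary gene names. They were TMEM123 (0.995) for QKI, PARK7 (0.999) and IP6K1 (0.998) for ADAR, and ACOT7 (0.983) and ATF4 (0.979) for ADARB1. For DHX9 they were ETF1 (0.999) and SNRPD3 (0.997), for ILF2 TMSL6 (0.988) and EIF3D (0.986), and for HNRNPL HIST1H3E (0.995) and HMGN2 (0.992). MBNL1 was followed by PAN3 (0.969) and ZNF154 (0.966), and NOVA2 by PSAP (0.998) and POLR2G (0.995). With 6 libraries that share depth and base composition as described, such values can arise among this many genes for any pattern, and they are given as a description.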

How the data were processed

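RNA of 6 libraries, 2 per group, was measured by sequencing after ribosomal RNA depletion. The authors deposited FPKM values per gene symbol, per the file headers. The submitters' processing notes name Trimmomatic 0.39, HISAT2 2.1.0, SAMtools 1.9, featureCounts 2.0.1 and the build GRCh38; annotation, strand and multi-mapping settings were not given in the sources used here. Library totals and gene lengths were recovered from the steps of the FPKM values, with read numbers of the members whole in hundredths within 5e-05 reads; the true length may be a multiple of the recovered one. One read on 1 kb was worth 0.012 to 0.0214 FPKM.

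Log2(FPKM + 1) of the 18162 genes averaging 1 FPKM or more was fitted in limma 3.58.1 (R 4.3.3, trend, 3 groups sharing 1 spread), with Benjamini-Hochberg adjustment over all of them and a threshold of 0.05; the scale understates changes of low genes. The fit was tested on simulated data. The labels do not say whether replicates were separate cultures, so p-values measure the spread between these libraries only. The members and lists were chosen with earlier results of these data known. Genes were named by rule: the members, their relatives, RTN4, the 3 highest genes and any called gene of each list, and the 2 genes most like each member; other names are marked. The GC correction subtracted, per library, a lowess curve (span 0.3) of deviations from the gene mean against transcript GC content, its level included. Other alternatives changed the pseudocount, minimum, scaling, trend, genes or libraries fitted, and added the replicate number as a block. Spreadsheet dates stood in place of 29 symbols; RIGI was measured under its older symbol DDX58 and counted once. Some genes that the naming rule chose are not reported here. Python 3.11.15 and matplotlib 3.10.9 were used for tables and plots.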

Additional observations from a re-analysis of the deposited data

Results flagged for a closer look

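ADARB2, the relative of ADARB1 without editing activity, lay on opposite sides of scramble with the hairpins: its mean was 0.761 FPKM in scramble, 1.01 FPKM with shRNA1 and 0.635 FPKM with shRNA2, with no overlap between the 3 groups. Separation of this kind was common among the 18162 genes tested. Without overlap, 46.6% were lower with shRNA2 than with shRNA1, 34.4% were lower with shRNA2 than in scramble, and 2869 genes were higher with shRNA1 than in scramble. ADARB2 was flagged because it had the joint pattern. The difference was not tested in the comparison of genes above 1 FPKM, which ADARB2 did not reach. Without that minimum, shRNA2 minus shRNA1 was -0.29 on the log2(FPKM + 1) scale (limma adjusted p = 0.312 over 59151 genes).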

How the results depend on the processing

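No member passed the test for both hairpins or for shRNA1 against scramble under any alternative; the calls under GC correction and without scramble replicate 1 are those given above. Of 527 single-gene values recomputed under alternatives, 451 kept their direction and side of the threshold, 65 changed sign and 11 passed the threshold anew; 3 of these 11 were of RTN4 (GC correction, with and without the replicate block, and without scramble replicate 1) and 1 of NOVA1. What caused each change was not tested.

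Signs changed mainly with the scaling. With libraries scaled to the same sum, both hairpins gave QKI 0.0096, ADAR 0.051, DHX9 0.018, HNRNPL 0.0013 and NOVA2 0.072, shRNA1 gave ADAR 0.045, MBNL1 0.037 and NOVA2 0.047, shRNA2 gave QKI 0.085, ADAR 0.057, DHX9 0.057, ILF2 0.033, HNRNPL 0.083 and NOVA2 0.098, and shRNA2 minus shRNA1 gave ADAR 0.013, DHX9 0.079, ILF2 0.13 and NOVA2 0.051. With quantile normalization the values were ADAR 0.053, DHX9 0.043 and NOVA2 0.032 for both hairpins, ADAR 0.068, DHX9 0.0100 and NOVA2 0.026 for shRNA1, QKI 0.042, ADAR 0.038, DHX9 0.075, ILF2 0.024, HNRNPL 0.029 and NOVA2 0.037 for shRNA2, and DHX9 0.065, ILF2 0.052 and NOVA2 0.011 between hairpins. Median-of-ratios scaling gave NOVA2 5.5e-05 for shRNA1, and DHX9 0.015 and ILF2 0.066 between hairpins. GC correction gave NOVA2 0.0050 for both hairpins, ADAR 0.015 and MBNL1 0.0060 for shRNA1, NOVA2 0.010 for shRNA2, and ILF2 0.053 and NOVA2 0.011 between hairpins, with or without the replicate block.

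Leaving out 1 library at a time gave, for both hairpins, ADAR -0.15 to 0.0042, HNRNPL -0.24 to 6.3e-05, MBNL1 -0.038 to 0.12 and NOVA2 -0.18 to 0.078. For shRNA1 the ranges were ADAR -0.087 to 0.071, MBNL1 -0.089 to 0.069 and NOVA2 -0.14 to 0.13. For shRNA2 they were HNRNPL -0.23 to 0.0066 and NOVA2 -0.23 to 0.031, and between hairpins QKI -0.017 to 0.019, ILF2 -0.050 to 0.011 and HNRNPL -0.0078 to 0.034.

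Gene counts over the whole table, given in the order both hairpins, shRNA1, shRNA2 and shRNA2 against shRNA1, were 15, 6, 114 and 0. They were 35, 3, 261 and 46 with a minimum of 5 FPKM, 103, 22, 382 and 246 with protein-coding genes alone, 1077, 838, 1701 and 1930 with GC correction, and 0 in all 4 with no filter. Scaling to the same sum gave 5, 1, 10 and 0, quantile normalization 30, 7, 71 and 0, median-of-ratios scaling 29, 7, 90 and 0, and a fit without trend 19, 4, 35 and 0. A pseudocount of 0.1 gave 12, 2, 96 and 0. With only the 2 groups compared in the fit the last 3 counts were 0, 1 and 957. Leaving out 1 library gave 0 to 507, 0 to 1, 0 to 2418 and 0 to 1029, the upper values coming without scramble replicate 1, or without scramble replicate 2 for the last. Lone libraries were assumed to vary like the other groups.

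The replicate number as a block gave 1, 0, 0 and 0 genes, and 748, 482, 1231 and 1519 together with GC correction. In the latter fit RTN4 still passed in limma (adjusted p = 0.019), whereas MBNL1 (0.055 with shRNA2, 0.054 between hairpins), HNRNPL (0.070 between hairpins) and NOVA1 (0.051) did not. Deviations of same-numbered libraries correlated at -0.00768 (scramble with shRNA1), -0.15 (scramble with shRNA2) and 0.0122 (shRNA1 with shRNA2), so the numbers were not taken to pair the samples. Among the members and relatives, the lowest recovered read numbers were 356 for ADARB2, 643 for MBNL2 and 648 for ADARB1, all in scramble replicate 1.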
